A study of Mus musculus with 61 samples.

Results

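The HoxD cluster of the mouse sits between 2 long regulatory domains that hold few genes, and 6 of the genes around it are described here by their RNA levels in stembryos. Evx2, Lnpk, Atf2 and Chn1 lie on the centromeric side, beyond Hoxd13, and Mtx2 and Hnrnpa3 lie on the telomeric side, beyond Hoxd1. The 6 members were chosen by name from the 55052 genes of the deposited tables, and all 6 were found there. Stembryos, also called gastruloids, are grown from clumps of mouse ES cells, which lengthen along 1 axis and switch on their Hox genes in order after a pulse of the Wnt agonist Chiron, given in the protocol of all groups. The study made 61 RNA-seq libraries from pooled stembryos. A wild-type time course had 2 libraries at each of 8 stages (72, 84, 96, 108, 120, 132, 144 and 168 h after aggregation), and further wild-type libraries were made at 96 h (4), 120 h (4) and 144 h (2). From 108 h on, the authors collected only stembryos that were elongating.

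The mutants were 8 lines with changes at the CTCF-binding sites (CBS) of HoxD or next to them, in 17 combinations of line and stage. Each combination had 2 libraries, except Del(sub-TAD1) at 96 h with 3. Del(CBS1), Del(CBS2) and Del(CBS4) lack 1 site, Del(CBS1-2) lacks 2 and was made from Del(CBS1) cells, and Del(CBS1-5) lacks the sites from CBS1 to CBS5. Del(d1-d4) lacks the segment from Hoxd1 to Hoxd4, and Ins(2xCBS-d4d8) carries 2 added sites beside CBS1. Del(sub-TAD1) lacks the part of the telomeric domain next to the cluster. That deletion removes Mtx2 itself, and the mice behind this line carried a transgene covering Mtx2 to keep them alive. The lines were derived in more than 1 way: Del(CBS1-5) and Del(sub-TAD1) came from blastocysts of mice on a BL6 and CBA background, whereas the others were clones edited on both alleles of the wild-type ES line. Line background and mutation cannot be told apart in the blastocyst-derived lines. In the edited lines, clone and mutation cannot be told apart either, since the paper describes no further clone of a line.

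Libraries fell into sets by their mitochondrial mRNA. In 28 libraries mt-Co2 was between 576 and 1464 FPKM (a level per transcript length and per mapped fragment), and in 33 it was between 0.205 and 3.85 FPKM, so that a level of 100 FPKM divides them (high mt and low mt sets). The low mt set holds the time course, replicate 4 of the other wild type at 96 h and 120 h, all wild type of 144 h and all libraries of Ins(2xCBS-d4d8) and Del(CBS4), together with the 96 h libraries of Del(sub-TAD1) and the 144 h libraries of Del(CBS1-5). Libraries of a group correlated at r of 0.943 to 0.989 within a set and 0.578 to 0.627 across sets, over log2 values of expressed genes. Each mutant was therefore compared with the wild type of its own stage and set, time course included. For Hoxd and some Hoxa genes the paper scaled FPKM by other Hox clusters, to lessen differences in growth speed. No such scaling was made here, and whether libraries of the same hour differ in developmental progress was not tested. Depth, inferred from the steps that 1 fragment makes in low values, was between 15.1 M and 38.9 M fragments. In the time course, the summed level of 4 pluripotency markers went from between 1195 and 1218 FPKM at 72 h to between 12.8 and 15.4 FPKM at 168 h, 4 somite markers summed to between 405 and 509 FPKM at 120 h, and all 8 spinal cord and neuron markers reached a mean of 1 FPKM at 168 h. The defining cardiac markers were low, with 1 of 3 at 1 FPKM or more at 168 h.

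Evx2 encodes a homeodomain protein related to Even-skipped, and Lnpk (lunapark) a protein of the junctions of the endoplasmic reticulum. In developing digits both are known to be switched on together with the posterior Hoxd genes by enhancers of the centromeric domain. Mtx2 (metaxin 2) takes part in protein import into mitochondria, Hnrnpa3 binds RNA, Atf2 is a leucine-zipper transcription factor and Chn1 encodes chimaerin 1, which acts on the small GTPase Rac in neurons. A cluster's neighbours serve as a measure of how far the regulation of HoxD reaches beyond the Hoxd genes.

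On chromosome 2 of mm10, Evx2 (ENSMUSG00000001815) occupies 74652991 to 74659557 on the minus strand, 8.8 kb from the Hoxd13 end of the cluster. Lnpk (ENSMUSG00000009207, 74520291 to 74579379, minus strand) lies 88.9 kb from it. Atf2 (ENSMUSG00000027104, 73816509 to 73892639, minus strand) is at 775.7 kb and Chn1 (ENSMUSG00000056486, 73610660 to 73775346, minus strand) at 893.0 kb. Beyond the Hoxd1 end, Mtx2 (ENSMUSG00000027099, 74825803 to 74878431, plus strand) is at 60.7 kb and Hnrnpa3 (ENSMUSG00000059005, 75659261 to 75669407, plus strand) at 894.1 kb. Chn1 and Lnpk overlap genes on the opposite strand, Chn1os1 and Chn1os3 in the first case and 4930445N08Rik in the other, which are listed at 0 FPKM in all 61 libraries. Whether strand was used in counting is not given in the sources used here.

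The promoters of the 3 nearest neighbours are shown because these genes share the cluster's edges but not their activity: Evx2 stayed at the detection limit, whereas Lnpk and Mtx2 were transcribed in every library. The windows run from 250 bases before to 50 after the gene's start and come from RefSeq on GRCm38.p6, 5′ to 3′ along the gene, with each CG dinucleotide in capitals. The RefSeq starts of Lnpk and Mtx2 lie inside the gene intervals given above, so that the whole Lnpk window is within that interval. They span chr2:74659508-74659807 (Evx2), chr2:74578899-74579198 (Lnpk) and chr2:74825562-74825861 (Mtx2).
Evx2: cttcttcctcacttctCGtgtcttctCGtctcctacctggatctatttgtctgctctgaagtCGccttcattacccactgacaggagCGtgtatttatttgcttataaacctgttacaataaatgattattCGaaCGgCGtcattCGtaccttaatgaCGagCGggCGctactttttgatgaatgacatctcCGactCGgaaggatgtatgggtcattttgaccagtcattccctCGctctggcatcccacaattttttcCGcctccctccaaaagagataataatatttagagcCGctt
Lnpk: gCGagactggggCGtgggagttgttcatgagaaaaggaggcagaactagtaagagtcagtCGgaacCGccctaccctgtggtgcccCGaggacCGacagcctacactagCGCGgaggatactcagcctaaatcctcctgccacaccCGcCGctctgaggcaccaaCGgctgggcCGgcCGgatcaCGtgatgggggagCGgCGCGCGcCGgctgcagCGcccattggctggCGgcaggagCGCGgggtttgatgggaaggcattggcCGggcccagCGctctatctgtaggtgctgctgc
Mtx2: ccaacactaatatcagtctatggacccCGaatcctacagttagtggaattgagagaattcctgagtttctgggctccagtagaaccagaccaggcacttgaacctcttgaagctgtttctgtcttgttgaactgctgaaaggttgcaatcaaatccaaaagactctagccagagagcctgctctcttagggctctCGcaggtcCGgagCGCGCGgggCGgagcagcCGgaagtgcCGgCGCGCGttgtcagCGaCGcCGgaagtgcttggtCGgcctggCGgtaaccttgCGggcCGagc
The Evx2 window held 16 CG dinucleotides at a GC content of 44.3%, the Lnpk window 25 at 65.7% and the Mtx2 window 19 at 56.3%. Of 32851 promoter windows of this length, 33% held at least 16 CG, 18.4% at least 25 and 28.1% at least 19. In Hnrnpa3 there were 44 CG, in Atf2 28 and in the outermost of the Chn1 starts 43, while a second Chn1 start had 5. The letters TATAAA, searched on both strands and present in 13.6% of windows, occurred once in Evx2, 147 bases before its start, and in no window of the other members. These counts describe the sequence only.

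Evx2 was listed at 0 FPKM in 44 of the 61 libraries and never exceeded 0.0879 FPKM, in replicate 1 of the 144 h wild type. The other 16 libraries above 0 ranged down to 0.0101 FPKM. By the length of its shorter transcript (1428 bases) all 61 values are at or under 3 fragments, the limit below which a value was read as not detected. By the longer one (4191 bases) 9 libraries exceeded this limit, with at most 8.98 fragments. These limits cover counting error only. In the time course Evx2 was listed at 0 in all 8 libraries up to 108 h. It then stood at 0.034 and 0 FPKM at 120 h, 0.043 and 0 FPKM at 132 h, 0.014 and 0 FPKM at 144 h, and 0.024 and 0.027 FPKM at 168 h.

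No onset of Evx2 was reached, taking onset as the first stage with both libraries at 1 FPKM or more. Its nearest Hoxd gene was measured in the same libraries: Hoxd13 stood at 3.25 and 1.92 FPKM at 144 h and 5.59 and 4.10 FPKM at 168 h. Hoxd13 rose between 72 h and 168 h by 3.78 on the log2 scale (limma, adjusted p = 3.54e-13). In the mutants Evx2 was at most 0.040 FPKM, in replicate 2 of Del(CBS1-2) at 96 h. In Del(CBS1-5) at 144 h it was listed at 0 in both libraries, where Hoxd13 stood at 3.28 and 3.06 FPKM. No library held Evx2 above 0.0879 FPKM, and changes among values this low could not be resolved at this depth. Its relative Evx1, which lies beside HoxA and like Evx2 marks V0 interneurons of the spinal cord, had another course: it stood at 55.6 and 34.5 FPKM at 72 h and at 1.15 and 0.80 FPKM at 168 h, and fell by 5.37 on the log2 scale (adjusted p = 1.23e-13).

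The other 5 members were expressed in all 61 libraries, all at 2 FPKM or more from 72 h on. On the FPKM scale, which is per transcript length, Hnrnpa3 had the highest level (454 to 760 FPKM) and Lnpk the lowest (6.98 to 12.6 FPKM). Atf2 ranged from 20.8 to 35.6 FPKM, Mtx2 from 17.5 to 37.1 FPKM and Chn1 from 12.4 to 29.4 FPKM, and these 3 ranges overlap. The order of the 3 changed over the time course. At 72 h Atf2 (33.3 and 35.6 FPKM) was above Mtx2 (24.1 and 24.5 FPKM), which was above Chn1 (12.4 and 13.7 FPKM). At 168 h Mtx2 (34.1 and 37.1 FPKM) was the highest, and Chn1 (27.2 and 28.6 FPKM) and Atf2 (27.0 and 28.6 FPKM) did not differ beyond their spread.

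Between 72 h and 168 h, 4 of the 5 members tested passed the threshold, Chn1 and Mtx2 upward and Atf2 and Hnrnpa3 downward. Of all 17098 genes tested, 48.2% passed in this comparison. The test was limma on log2(FPKM + 0.1), two-sided, with p-values adjusted over all genes tested and a threshold of 0.05. In bulk RNA, fewer cells of a type and less RNA per cell cannot be told apart, and the part of the changing cell types named above in these changes was not tested.

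**Figure D1:**
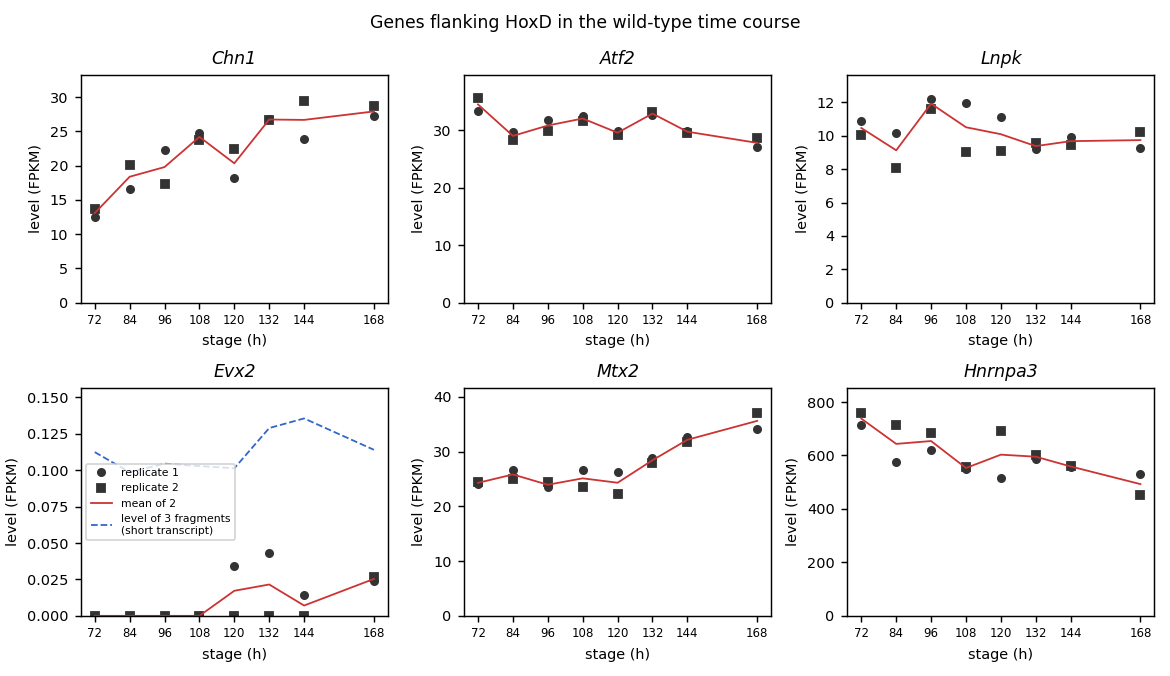
Level in FPKM (linear axis from 0, with its own scale per gene) against stage in hours for the 6 members, with circles and squares for replicates 1 and 2 and a red line through their mean. Chn1 and Mtx2 end higher than they began and Atf2 and Hnrnpa3 lower, while Evx2 stays under the dashed level of 3 fragments of its short transcript.

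Chn1 had the largest change of the members. It stood at 12.4 and 13.7 FPKM at 72 h, 16.6 and 20.1 FPKM at 84 h, 22.3 and 17.3 FPKM at 96 h, 24.7 and 23.7 FPKM at 108 h, and 18.2 and 22.4 FPKM at 120 h. The later values were 26.8 and 26.7 FPKM at 132 h, 23.9 and 29.4 FPKM at 144 h, and 27.2 and 28.6 FPKM at 168 h. All libraries from 84 h on were above both at 72 h, with a dip in the mean at 120 h. The level at 168 h was 2.14 times that at 72 h, which is 1.09 on the log2 scale (SE 0.176, adjusted p = 2.47e-06). The tested genes most like it over the 8 stage means were Bnip1, Ints7 and Zc3h7b, with Pearson r of 0.992, 0.988 and 0.987.

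Mtx2, the nearest gene beyond Hoxd1, was level until 120 h and higher afterwards. It stood at 24.1 and 24.5 FPKM at 72 h, 26.7 and 24.9 FPKM at 84 h, 23.5 and 24.4 FPKM at 96 h, 26.7 and 23.6 FPKM at 108 h, and 26.3 and 22.3 FPKM at 120 h. It then reached 28.9 and 27.9 FPKM at 132 h, 32.6 and 31.7 FPKM at 144 h, and 34.1 and 37.1 FPKM at 168 h. Within the time course, the 3 last stages lie above all earlier libraries, while the 2 wild-type libraries of 144 h made outside it stood lower, at 25.4 and 27.1 FPKM. The level at 168 h was 1.47 times that at 72 h, or 0.55 on the log2 scale (SE 0.102, adjusted p = 2.31e-05). Hoxd1, the Hoxd gene nearest to Mtx2, had its highest level in the time course at 108 h, at 13.1 and 14.1 FPKM, and stood at 3.62 and 3.497 FPKM at 168 h. The genes most like Mtx2 were Brk1, Myog and Mir670hg (r of 0.986, 0.983 and 0.979).

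Hnrnpa3 stood at 715 and 760 FPKM at 72 h, 574 and 713 FPKM at 84 h, 622 and 686 FPKM at 96 h, 551 and 555 FPKM at 108 h, and 516 and 691 FPKM at 120 h. It stood at 589 and 602 FPKM at 132 h, 557 and 561 FPKM at 144 h, and 532 and 454 FPKM at 168 h. Both libraries at 168 h were below both at 72 h, and the difference was -0.59 on the log2 scale (SE 0.105, adjusted p = 1.26e-05). Atf2 went from 33.3 and 35.6 FPKM at 72 h to 29.7 and 28.3 FPKM at 84 h, and stood between 29.2 and 33.2 FPKM from 96 h to 144 h, and at 27.0 and 28.6 FPKM at 168 h. Over the whole time course its difference was -0.31 on the log2 scale (SE 0.0953, adjusted p = 0.00655). Without replicate 2 at 72 h (-0.26, adjusted p = 0.0731) or replicate 1 at 168 h (-0.27, adjusted p = 0.0654) it did not pass. The genes most like Hnrnpa3 were Gtf2f1, Gnl2 and Atp8b2 (r of 0.988, 0.987 and 0.987), and those most like Atf2 were Zic2, Dnajc8 and Stag1 (0.941, 0.939 and 0.932).

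Lnpk, which lies 88.9 kb from the cluster, had no change between 72 h (10.9 and 10.1 FPKM) and 168 h (9.28 and 10.2 FPKM) that passed the threshold (log2 -0.10, standard error 0.142, adjusted p = 0.646). Between these stages it stood at 10.2 and 8.08 FPKM at 84 h, 12.2 and 11.6 FPKM at 96 h, 12.0 and 9.03 FPKM at 108 h, 11.1 and 9.06 FPKM at 120 h, 9.20 and 9.57 FPKM at 132 h, and 9.92 and 9.44 FPKM at 144 h. Its rise from 84 h to 96 h was the 1 call among the 35 tests of adjacent stages, at log2 0.39 (standard error 0.142, adjusted p = 0.0466). Over all genes 20.7% passed between 84 h and 96 h, and 10.2% over the 7 pairs of adjacent stages. The call was lost without replicate 2 at 84 h (log2 0.23, adjusted p = 0.480), replicate 1 at 96 h (adjusted p = 0.178) or replicate 2 at 96 h (adjusted p = 0.107). It was also lost in 4 of the 10 other settings tried, and was kept in 35 of the 57 fits that left out a library outside the comparison. The 95% interval of cufflinks spanned between 7.77% and 13.8% on each side of a value, against 2.95% to 3.56% for Hnrnpa3. Most like Lnpk were Ppp1r10, Gm43767 and Ctsz (r of 0.949, 0.945 and 0.945).

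Hnrnpa3 has near-identical copies in the genome, and how fragments were assigned among them was not tested. In 36 other genes a transcript matched it at 90% identity or more over 500 bases or more. The level summed over these genes was between 4.28 and 8.36 FPKM in the low mt set and between 442 and 662 FPKM in the high mt set, where it came to as much as 90.4% of the level of Hnrnpa3. Wild type at 96 h had 546 to 573 FPKM of Hnrnpa3 in the high mt set and 622 to 686 FPKM in the low mt set, but with the copies added 1021 to 1075 and 628 to 692 FPKM. In the low mt set between 96.2% and 98.1% of low values of single-transcript genes came out as whole fragments (within 0.02 of a whole number), against 75.3% to 79.9% in the high mt set. The methods state that only uniquely mapped reads were kept, and whether this held alike in both sets was not tested. Values of Hnrnpa3 are uncertain and are compared only within a set. Chn1 had 1 such match, to Chn1os1 (listed at 0 FPKM), and Atf2, Lnpk, Evx2 and Mtx2 had 0.

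**Figure D2:**
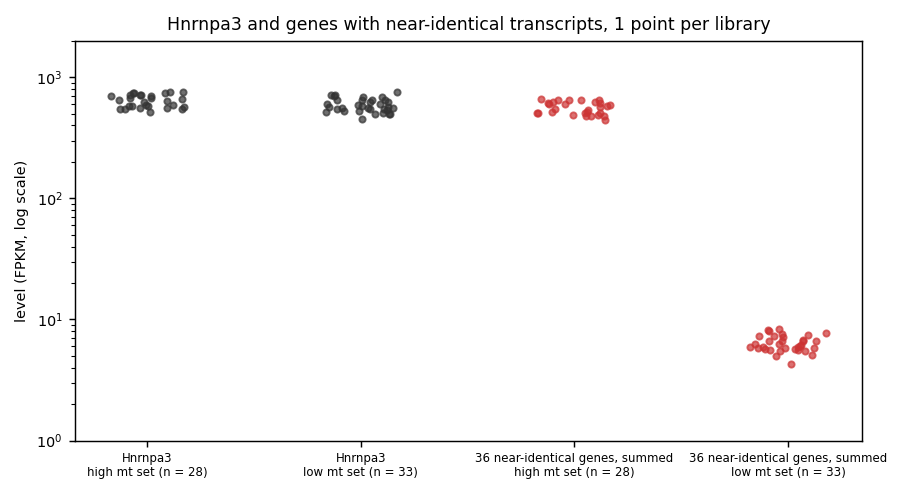
Level in FPKM on a log axis of Hnrnpa3 (dark) and of 36 genes with near-identical transcripts, summed (red), with 1 point per library for the 28 high mt and 33 low mt libraries. The copies sit at 442 to 662 FPKM in the high mt set and at 4.28 to 8.36 FPKM in the low mt set, while Hnrnpa3 itself overlaps between the sets.

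Atf2 also differed between the sets in wild type. It stood at 22.3 to 24.0 FPKM in the 3 high mt libraries and at 29.8 to 31.8 FPKM in the 3 low mt libraries at 96 h, and at 23.1 to 24.5 against 29.2 to 30.1 FPKM at 120 h. The sets do not overlap at either stage. Chn1 overlapped between the sets at both stages, and Lnpk and Mtx2 at 120 h only. Without matching the sets, a mutant's difference from wild type would hold these differences as well.

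The mutants were compared with wild type to ask whether genes outside the cluster differ when sites within HoxD, or the domain beside it, are changed. Of 85 tests, of 5 members in 17 mutant conditions, 7 passed the threshold (6 lower and 1 higher). Over all genes 6.24% of tests passed in these comparisons, and 20 of the 85 had an unadjusted p under 0.05. The log2 differences lay between -0.46 and 0.19, and the calls were of Atf2 (3), Lnpk (2) and Hnrnpa3 (2). In fits of only the groups compared, 0 of the 85 passed, so that each call rests on the spread estimated over all 61 libraries. In Del(CBS1), Del(CBS1-2), Del(CBS2) and Del(d1-d4) no member passed at either stage, and over all genes only 0.605% of tests passed in these 8 comparisons.

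**Figure D3:**
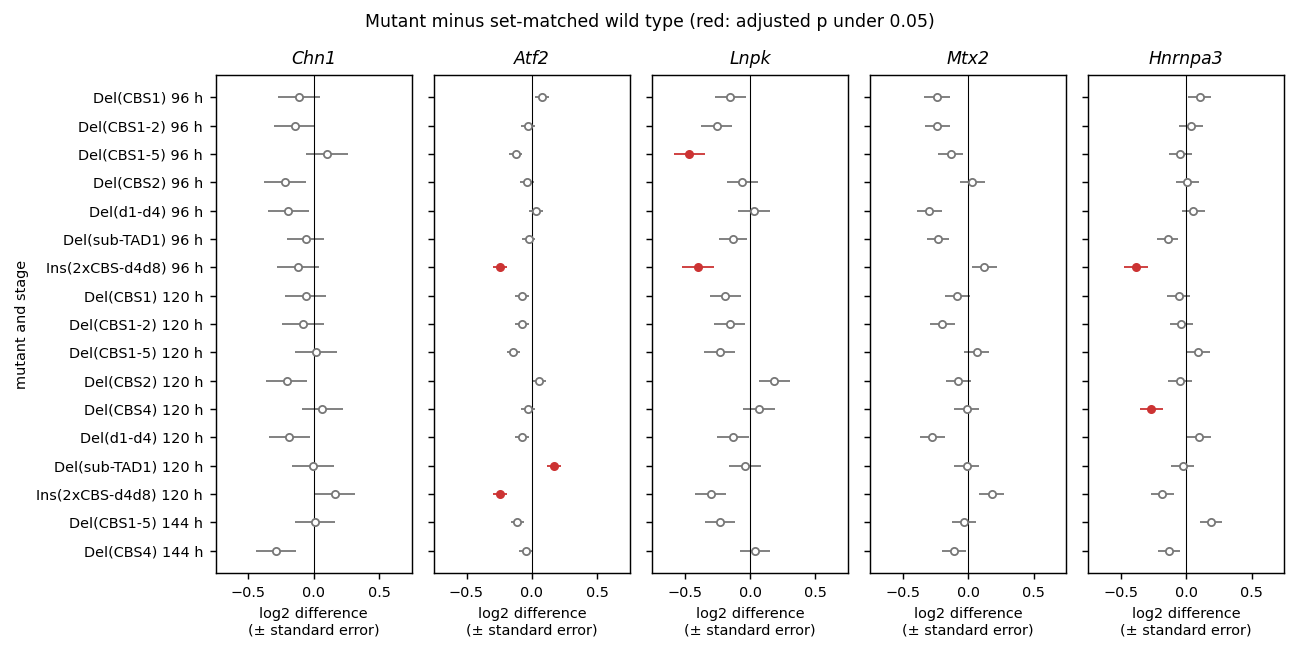
Log2 difference of each mutant from its set-matched wild type (x axis, with 1 standard error on either side) for the 5 members tested, 1 row per mutant and stage, with red filled points for adjusted p under 0.05. The 7 red points are in Ins(2xCBS-d4d8) at both stages (4), Del(CBS1-5) at 96 h (1), Del(CBS4) at 120 h (1) and, at the same stage, Del(sub-TAD1) (1), and all but 1 lie to the left of 0.

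Lnpk had the largest difference among the called ones, in Del(CBS1-5) at 96 h. The mutant libraries stood at 8.66 and 7.501 FPKM and the controls at 11.6, 10.9 and 11.1 FPKM. Both mutant libraries were below all 3 controls, by 27.6% in the mean, at log2 -0.46 (standard error 0.120, adjusted p = 0.00890), in a comparison in which 11.9% of all genes passed. Without replicate 2 of the mutant the difference was -0.36 (adjusted p = 0.194). At 120 h Lnpk stood at 6.98 and 7.53 FPKM against 8.35, 8.17 and 9.10 FPKM, and at 144 h at 8.25 and 8.58 FPKM against 9.44 to 10.5 FPKM. The mutant libraries were below all controls at these stages too, and neither passed the threshold. Tested against each other, the log2 differences at 120 h and 96 h were 0.23 apart (SE 0.170, adjusted p = 0.953), the smaller deficit being at 120 h, so that a difference between stages was not shown. In Del(CBS1) and Del(CBS1-2) Lnpk was also below all controls of its stage, without passing. It stood at 9.09 to 10.5 against 10.9 to 11.6 FPKM at 96 h, and at 7.20 to 7.95 against 8.17 to 9.10 FPKM at 120 h. In Del(CBS2) it was below all controls at 96 h (10.6 and 10.8 FPKM), without passing, and above all of them at 120 h (9.46 and 9.99 FPKM). Over the 17 conditions Lnpk, Atf2 and Mtx2 were each lower in 13, Chn1 in 12 and Hnrnpa3 in 10. Conditions of the same stage and set share their controls, so that these counts are not independent. No such count was made over all genes.

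Del(CBS1-5) at 144 h had the broadest change of the 17 conditions, with 30.7% of all genes past the threshold, and 0 of the 5 members passed there (limma, 2 with an unadjusted p under 0.05). These 2 were Atf2, at 27.8 and 26.3 FPKM against 27.9 to 29.9 FPKM (log2 -0.11, adjusted p = 0.0837), and Hnrnpa3, at 704 and 653 FPKM against 557 to 644 FPKM (log2 0.19, adjusted p = 0.0934). With scaling by the median of ratios, the Atf2 difference was -0.18 (adjusted p = 0.0103). Without replicate 2 of the wild type outside the time course it was -0.14 (adjusted p = 0.0410), and without replicate 1 that of Hnrnpa3 was 0.23 (adjusted p = 0.0489). The 4 controls of this stage stood apart in the nearest Hoxd gene, since Hoxd13 was at 0.187 and 0.360 FPKM outside the time course and at 3.25 and 1.92 FPKM within it. Atf2 was below all its controls in this line at the earlier stages too. It stood at 20.8 and 21.4 against 22.3 to 24.0 FPKM at 96 h, and at 21.2 and 22.3 against 23.1 to 24.5 FPKM at 120 h. Neither passed (limma, adjusted p = 0.123 and 0.0961), although the 96 h difference passed with upper-quartile scaling (adjusted p = 0.0361).

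Ins(2xCBS-d4d8) gave 4 of the 7 calls, all lower. At 96 h 3 of the 5 members were lower, against 5.52% of all genes lower in that comparison. Lnpk stood at 9.31 and 8.93 FPKM against 12.2, 11.6 and 12.3 FPKM (log2 -0.40, standard error 0.120, adjusted p = 0.0293). Hnrnpa3 stood at 497 and 500.5 FPKM against 622, 686 and 647 FPKM (log2 -0.38, standard error 0.0898, adjusted p = 0.00567). Atf2 stood at 26.1 and 25.6 FPKM against 31.8, 29.8 and 30.3 FPKM (log2 -0.24, standard error 0.0526, adjusted p = 0.00290). In all 3 genes both mutant libraries were below all 3 controls.

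Of these, the Atf2 call was kept without each library in turn. The Lnpk call was lost in 4 of 5 such fits and that of Hnrnpa3 in 1, without replicate 1 of the mutant (log2 -0.38, adjusted p = 0.0850). With all wild-type libraries outside the time course as controls, most of which belong to the other set, the Atf2 difference was 0.07 (adjusted p = 0.618). At 120 h Atf2 was lower again, at 24.7 and 25.4 FPKM against 29.9, 29.2 and 30.1 FPKM (log2 -0.25, standard error 0.0526, adjusted p = 0.00582), where 4.35% of all genes passed. It was lost without replicate 1 of the mutant (adjusted p = 0.102), and with all wild type outside the time course as controls the difference was -0.02 (adjusted p = 0.933). Lnpk at 120 h was at 7.84 and 8.76 FPKM against 11.1, 9.06 and 10.6 FPKM and did not pass (log2 -0.30, adjusted p = 0.146). Mtx2, which lies on the other side of the cluster, was at 26.3 and 27.9 FPKM at 96 h and 27.6 and 29.3 FPKM at 120 h, against 23.5 to 26.8 and 22.3 to 26.9 FPKM.

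**Figure D4:**
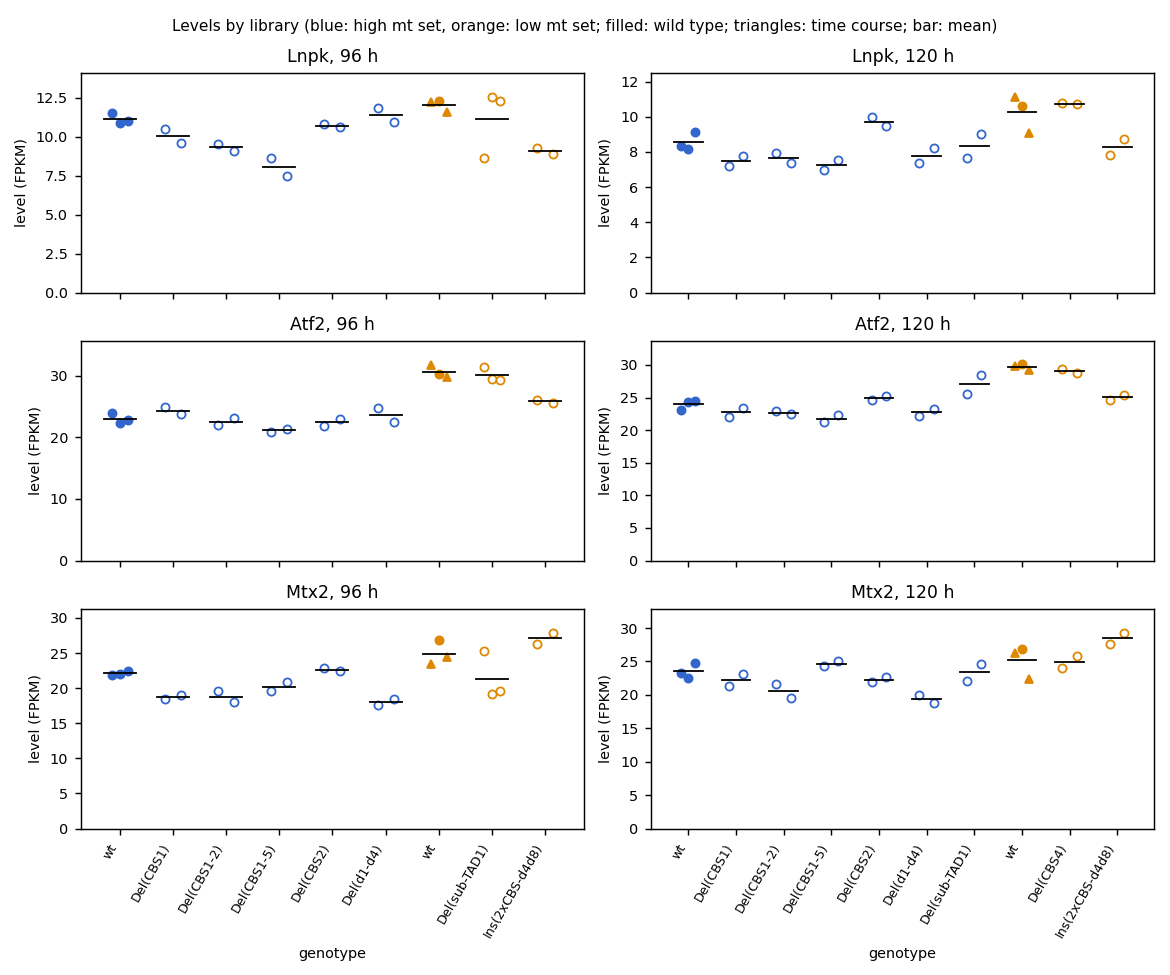
Level in FPKM (linear axes from 0) of Lnpk, Atf2 and Mtx2 in each library at 96 h (left) and 120 h (right) by genotype, with blue for the high mt set, orange for the low mt set, filled points for wild type, triangles for the time course and a bar at the mean. Atf2 is higher in the orange wild-type points (29.2 to 31.8 FPKM) than in the blue ones (22.3 to 24.5 FPKM), and in Lnpk and Atf2 the open orange points of Ins(2xCBS-d4d8) lie below the orange wild type.

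Mtx2 was the member that the Del(sub-TAD1) deletion removes and the transgene covers, and it was expressed in all 5 libraries of that line. At 96 h it stood at 25.3, 19.2 and 19.6 FPKM against 23.5, 24.4 and 26.8 FPKM, and at 120 h at 22.1 and 24.6 FPKM against 23.2, 22.6 and 24.8 FPKM. At 96 h replicate 1 lay among the controls and replicates 2 and 3 below all of them. The difference was -0.23 on the log2 scale (standard error 0.0859, adjusted p = 0.0669) and did not pass, in a comparison in which 14.1% of all genes passed. Without replicate 1 of the mutant it was -0.36 (adjusted p = 0.00263), and with scaling by the median of ratios -0.24 (adjusted p = 0.0354). Replicate 1 also stood apart in Lnpk, at 8.68 FPKM against 12.6 and 12.3 FPKM, and correlated at r of 0.956 and 0.952 with the other two, which correlated at 0.981 with each other. The paper lists the deletion breakpoint on both alleles of this line and states that the deletion includes Mtx2. The Mtx2 values of this line are therefore those of the transgene, and the comparison sets them beside the wild-type gene.

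Atf2 in Del(sub-TAD1) at 120 h was the 1 call in the upward direction. It stood at 25.6 and 28.4 FPKM against 23.1, 24.4 and 24.5 FPKM (log2 0.17, standard error 0.0526, adjusted p = 0.0431), where 6.65% of all genes passed. It was lost without replicate 2 of the mutant (log2 0.10, adjusted p = 0.623), replicate 1 of the wild type (adjusted p = 0.189) or replicate 2 of the wild type (adjusted p = 0.0757). Of 13 other settings 7 kept the call, and with all wild type of the stage as controls, both sets included, the difference was 0.02 (adjusted p = 0.974). In Del(CBS4) at 120 h Hnrnpa3 was lower, at 495 and 503 FPKM against 516, 691 and 606 FPKM (log2 -0.27, standard error 0.0898, adjusted p = 0.0455), where 12.4% of all genes passed. That call was lost without any 1 of 4 of the 5 libraries compared, with replicate 2 of the time course having the most weight (log2 -0.16, adjusted p = 0.239).

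Mtx2 in Del(d1-d4), which removes the Hoxd genes nearest to it, stood at 17.5 and 18.4 FPKM at 96 h against 21.9, 22.0 and 22.5 FPKM. At 120 h it stood at 20.0 and 18.8 FPKM against 23.2, 22.6 and 24.8 FPKM. All 4 mutant libraries were below the controls of their stage, and neither difference passed (log2 -0.30, adjusted p = 0.228 and log2 -0.28, adjusted p = 0.251). With all wild type of the stage as controls, both sets included, they passed (log2 -0.38, adjusted p = 0.0180 and log2 -0.32, adjusted p = 0.0484). These wider controls add low mt wild type, in which Mtx2 at 96 h stood at 23.5 to 26.8 FPKM, above all high mt controls. The wider difference at 96 h thus holds that between the sets as well, while at 120 h the sets overlapped. In Del(CBS1) and Del(CBS1-2) at 96 h Mtx2 stood at 18.4 and 19.1 FPKM and at 19.6 and 17.99 FPKM. These values were also below the set-matched controls, without passing (adjusted p = 0.492 and 0.314). Del(CBS1-2) passed with the wider controls, with the same limit (log2 -0.32, adjusted p = 0.0392). In Del(CBS2) at 96 h, at 22.8 and 22.4 FPKM, Mtx2 overlapped the set-matched controls. Chn1, the member farthest on the centromeric side, ranged in the mutants from log2 -0.29 to 0.16.

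Whether a mutant's effect differed between stages was tested for 10 pairs of stages. Of 50 tests of members 0 passed (limma, 2 with an unadjusted p under 0.05), against 2.57% over all genes. These 2 were both of Atf2, in Del(CBS1) and Del(sub-TAD1) between 96 h and 120 h (adjusted p = 1 and 0.120). In the pairs that involve Del(CBS1-5) at 144 h, and in that of Del(sub-TAD1), the stages belong to different sets.

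In the stretch of chromosome 2 that reaches from beyond Chn1 to beyond Hnrnpa3 the tables hold 83 genes, of which 37 were tested and 21 passed between 72 h and 168 h (16 higher and 5 lower, with a median log2 difference of 0.77 over the 37, against 0 over all genes), beside 48.2% of all genes. Leaving out the members and the genes and transcripts of HoxD, 19 genes remained, with a median of 0. Of these, 5 passed between 72 h and 168 h, below the share over all genes: Wipf1 (log2 0.85), which encodes an actin regulator, and Ttc30b (0.83), a gene of cilium transport, rose, and Nfe2l2 (-1.40), which encodes the oxidative stress regulator Nrf2, Ola1 (-0.55) and Scrn3 (-0.53) fell. Over the 17 mutant conditions 17 of 323 tests of these genes passed (9 higher and 8 lower), beside 6.24% of tests over all genes. The genes most often called, Nfe2l2 and Cir1, moved in opposite directions in different mutants, as did Wipf1. Scrn3, Cyct and Ttc30a1 each kept their direction in the mutants that called them. Nfe2l2 was lower in Ins(2xCBS-d4d8) at 96 h (log2 -0.71) and in Del(CBS4) at 120 h (-0.56) and higher in the 96 h libraries of Del(sub-TAD1) (0.55) and the 144 h libraries of Del(CBS1-5) (0.80). Cir1 was lower in the first 2 of these (-0.61 and -0.40) and higher in Del(CBS1-5) at 144 h (0.33), and Scrn3 was higher there (0.75) and in Del(sub-TAD1) at 96 h (0.40).

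A further list held 21 genes, mostly relatives of the members and genes beside the other Hox clusters. Nfe2l2, which lies in the stretch around HoxD described above, was in it too, and its calls count in both lists. Of the 21 genes, 20 were tested and 11 passed between 72 h and 168 h (7 higher and 4 lower), beside the 48.2% of all genes. The median log2 difference over the 20 was 0.07. Among them, Hnrnpa1, a relative of Hnrnpa3 beside HoxC, rose by 0.29 on the log2 scale, and Chn2, the relative of Chn1 beside HoxA, fell by 3.52 (SE 1.15, adjusted p = 0.0105), whereas Chn1 rose and Hnrnpa3 fell. Over the 17 mutant conditions 27 of 340 tests of this list passed (14 higher and 13 lower), again beside 6.24% over all genes. In Ins(2xCBS-d4d8) at 96 h 4 of the 20 passed, all lower, where 9.91% of all genes passed in either direction: Hnrnpa1 (-0.31), Nfe2l1 (-0.30), Cbx1 (-0.42) and Nfe2l2. In Del(CBS1-5) at 144 h 8 passed (5 higher and 3 lower), with Cbx1 at 0.55, Nfe2l1 at 0.16 and Hnrnpa1 at -0.14. In Del(sub-TAD1) at 96 h 5 passed (4 higher and 1 lower), with Cbx1 at 0.38 and Hnrnpa1 at -0.24.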

How the data were processed

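RNA was extracted from pooled stembryos and poly-A libraries were prepared with a stranded kit. Per the methods and processing notes, the authors removed adapters with cutadapt 1.16, mapped paired reads to mm10 (STAR 2.7.7a), kept, as stated, only uniquely mapped reads and ran Cufflinks 2.2.1 with default settings on an annotation made from Ensembl 102. The deposited values are FPKM per gene, which the authors had scaled to mapped fragments and transcript length; no counts were used here. Groups and replicate numbers came from the sample titles. The methods describe replicates as biological and independent, and p-values measure the spread between these libraries. Lines sharing an identifier (25 identifiers) were summed.

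From these values, log2(FPKM + 0.1) of the 17098 genes with a mean of at least 1 FPKM in at least 1 condition was fitted with limma 3.58.1 (R 4.3.3) over 61 libraries. Stages were compared in a model with 1 coefficient per group, and mutants in a model with 1 coefficient per genotype, stage and library set. In the stage model the wild-type groups outside the time course at 96 h and 120 h each mix 3 high mt libraries and 1 low mt library. The difference between sets thus enters the spread used for the stage tests. P-values were two-sided and adjusted by Benjamini-Hochberg per comparison. Fold changes are on the log2(FPKM + 0.1) scale, which understates changes of low genes; Evx2 did not pass the filter. The script was first tested on simulated data. Tables and figures were made in Python 3.11.15 (matplotlib 3.10.9, scipy 1.17.1, numpy 2.4.6, pandas 2.3.3), and near-identical transcripts were found with blastn in GENCODE vM21. Intervals of FPKM are those of Cufflinks.

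Named genes were the 6 members, genes that passed in a stretch of chromosome 2 from beyond Chn1 to beyond Hnrnpa3 (83 genes; the subset outside HoxD was formed after the data were seen), a list of 21 relatives and neighbours of other Hox clusters (with Nfe2l2 also in that stretch), the 3 genes most correlated with each member, and Hoxd genes beside a member. The members and lists were chosen with earlier results of these data known. Alternatives covered the pseudocount, filter, scaling, variance trend, replicate block, controls, libraries in the fit and each library left out. Replicate numbers do not pair libraries: deviations from group means of same-numbered mutant and wild-type libraries correlated between -0.06 and 0.084.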

Additional observations from a re-analysis of the deposited data

Results flagged for a closer look

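Among the 12 sets of 4 wild-type libraries that were checked (6 members at 96 h and 120 h), 3 held a library far from the others, where chance gives about 1 in 20. At 120 h replicate 4 had 27.3 FPKM of Chn1 against 20.0 to 20.9 FPKM in the others, and 0.0671 FPKM of Evx2 against 0 FPKM. This Evx2 value is under 3 fragments on the short transcript, and any value above 3 zeros would be singled out, so that it says nothing of the library. At 96 h replicate 4 had 26.8 FPKM of Mtx2 against 21.9 to 22.5 FPKM. In each case it was the 1 low mt library beside 3 high mt libraries.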

How the results depend on the processing

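The count of members called between 72 h and 168 h was 4 under all alternatives except leaving out 1 library, where it lay between 3 and 4. For adjacent stages the 1 call became 0 without a filter, with a filter of 0.1 FPKM and with upper-quartile scaling, and 3 with scaling by the median of ratios. With only the time-course libraries the count was 1, but the call was of Atf2 (84 h against 72 h) and not of Lnpk. Leaving out 1 library gave 0 to 3 calls, with 3 without replicate 4 of the wild type at 120 h. Atf2 at 84 h against 72 h was among these 3 (limma, adjusted p = 0.0312). It passed without replicate 4 of the wild type at 96 h as well (adjusted p = 0.0186). Both of these libraries belong to the low mt set, in groups that otherwise hold high mt libraries. In the mutants the 7 calls became 0 in fits of only the compared groups, were 5 to 8 with 1 library left out, and 5 without a filter. With all wild type outside the time course as controls, the Atf2 difference in Ins(2xCBS-d4d8) at 96 h turned from -0.24 to 0.066, where the controls include the other library set. Differences between stages gave 0 calls, or 1 without replicate 1 of Del(sub-TAD1) at 96 h. The onset of 5 members by 72 h held at 0.5 and 2 FPKM. Of the values of single calls under alternatives, 145 kept their direction and side of the threshold, 50 lost the threshold and 1 reversed. Summing Hnrnpa3 with its copies, an alternative chosen after seeing the data, changed no count of calls. Scaling moved the median of all genes by at most 0.048 (log2). Except where a value above shows it, the cause was not tested. Depth limits the resolution of changes among the values of Evx2, which came to at most 8.98 fragments.

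With the replicate number as a block, adjacent stages gave 3 calls in place of 1 and the mutants 6 in place of 7, where Hnrnpa3 in Del(CBS4) at 120 h was lost (adjusted p = 0.0539). Same-numbered libraries of different stages correlated between -0.0894 and 0.132 in their deviations, so that the numbers are labels only. The block changed neither the 4 calls between 72 h and 168 h nor the 0 between stages of a mutant.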
